A study of Mus musculus with 30 samples.

Results

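The RNA described here came down with an antibody meant not to bind its target. An antibody against nucleolin was incubated with its blocking peptide before the immunoprecipitation (IP), so the RNA recovered (blocked IP) is the background against which RNA bound to nucleolin would be read. The comparison set 3 blocked libraries from injured mouse sciatic nerve against 3 from naive nerve, 6 of the 30 libraries of the series, and covered the 11862 Ensembl transcripts that the authors listed for both conditions. The naive group holds uninjured nerve. The injured group holds nerve taken 7 days after a crush at mid-thigh level. Every library, in both groups, was made from 10 pooled nerves, as an axoplasm-enriched extract (the supernatant left after nerve ground in buffer was spun and its pellet thrown away), and was captured on protein G beads with the blocked antibody. The 3 repeats are described as independent and biological, and the sources used here give no strain, sex or age. Input RNA and unblocked IP libraries of the same design serve below for reference.

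Nucleolin is an abundant RNA-binding protein that works in ribosome production in the nucleolus and also binds mRNAs in the cytoplasm, in axons among other places. A blocked IP is meant to hold what sticks to beads, antibody and tube, and may in that way sample the extract itself. How fully the peptide blocked the antibody was not tested here. A nerve extract contains more than axons: Schwann cells, which wrap axons and make myelin, are the most numerous cells of the nerve, beside fibroblasts, vessels, fat and immune cells. After a crush, the axons beyond the injury degenerate, Schwann cells shut down myelin and lipid synthesis, some cells divide, and macrophages enter to clear debris.

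Library totals over the listed transcripts were 19015661, 16017656 and 18857315 counts for naive blocked libraries 1, 2 and 3, and 21039669, 14353693 and 15082491 for injured. The libraries numbered 3 stood apart. Across transcripts, log2 CPM (counts scaled to a common library size with TMM, per 1e+06) of naive blocked 3 correlated at 0.927 to 0.949 with the 3 naive inputs, against 0.717 to 0.739 for naive blocked 1 and 0.773 to 0.795 for naive blocked 2. Injured blocked 3 correlated at 0.889 to 0.944 with injured input, against 0.736 to 0.781 and 0.759 to 0.813 for injured blocked 1 and 2. The likeness was not to input alone. With unblocked IP 1, 2 and 3 of its condition, naive blocked 3 correlated at 0.712, 0.783 and 0.917, and injured blocked 3 at 0.816, 0.867 and 0.945. These correlations run over transcripts of the same library pairs and carry no test. Of the shared transcripts, 11.9%, 9.12% and 1.34% had no count in naive blocked 1, 2 and 3, and 13.1%, 5.78% and 0.472% in injured blocked 1, 2 and 3.

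**Figure D1:**
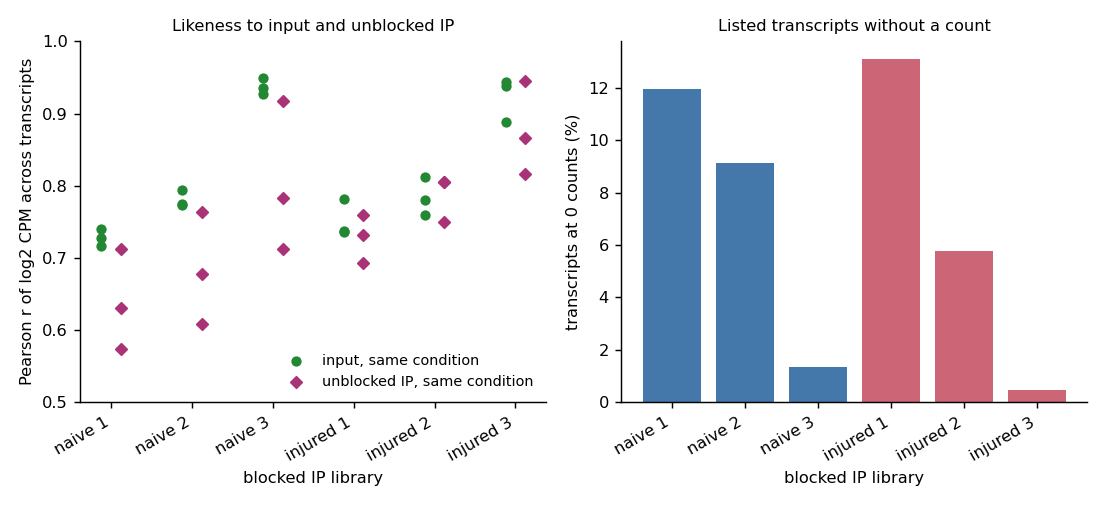
Left, Pearson correlation of log2 CPM across transcripts between each blocked library (x axis) and the 3 inputs (circles) or 3 unblocked IP libraries (diamonds) of its condition. Right, percentage of the shared transcripts with 0 counts in each blocked library. The libraries numbered 3 sit highest on the left in both conditions and hold the fewest empty transcripts on the right (1.34% and 0.472%).

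The missing transcripts were not all scarce ones. Among the 10893 transcripts that are also listed for input, 471 had no count in 1 of naive blocked 1 and 2 and at least 100 counts in the other, and 456 did so between injured blocked 1 and 2. Pairs with a library numbered 3 gave 324 and 211 in naive and 307 and 72 in injured nerve. The same count was at most 38 for any pair within an unblocked IP group and at most 8 within an input group. These counts were not matched for depth, and the depth of the input libraries is not given here. The unblocked IP libraries held 10435407 to 14644032 counts, fewer than most blocked ones. A cut of 100 counts is reached more easily in a deeper library. The part this has in the results below was not tested. Results are given with and without the blocked libraries numbered 3, while the unblocked IP libraries numbered 3 were kept in every fit of 12 libraries.

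The blocked background differed between injured and naive nerve in a fit shared with the unblocked libraries. In edgeR (quasi-likelihood test, p adjusted by Benjamini-Hochberg over all transcripts) 87 transcripts rose and 97 fell among 11840 tested, each from a different gene. The test used 12 libraries, the 6 blocked and the 6 unblocked ones, which share 1 estimate of spread. Recovery was less even within the blocked groups than within the unblocked ones. The shared estimate may therefore be too small for the blocked libraries, and the standard errors and adjusted p below carry that limit. These calls are 0.735%, 0.819% and together 1.55% of transcripts tested. In all 184 the 3 libraries of one group lay above the 3 of the other, which was so for 24.2% of all transcripts (12.6% higher and 11.6% lower). Rises had a median of 3.12 and falls of -2.66 on the log2 scale, against -0.05 over all transcripts. The called transcripts were abundant, with a median of 128 CPM over the 6 libraries against 21 CPM for all. Of 183 with an annotation 89.1% were protein coding, against 76.1% of all transcripts, and 3.28% were retained-intron forms, against 10.8%. In a bulk extract, fewer cells of a type and less RNA per cell cannot be told apart, in any of the gene groups that follow.

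Without both libraries numbered 3 the fit called 274 higher and 219 lower, 130 of the 184 among them. Each single library mattered: leaving out naive blocked 1, 2 or 3 gave 79, 48 or 419 calls, and leaving out injured blocked 1, 2 or 3 gave 66, 13 or 278. With the 6 blocked libraries fitted alone, edgeR called 0 (1436 at an unadjusted p under 0.05), and DESeq2 called 804. In all, 10 of the 184 were called whichever single library was left out: Tnfaip2, Mpeg1, Gpnmb, Mki67, Fyb, Fbn2, Ctsd, Plin2, Mmp14 and Tuba1c, which are 10 rises and 0 falls. Every other call named below was lost when at least 1 library was left out, and without injured blocked 2 no fall was called. Of the list genes named below, Fgr, Sgol2a, Kif23, Cd84, Atp6v0d2, Fmod, Spock2, Insig1, Car3, Nr1d1 and Bhlhe41 were not called without both libraries numbered 3.

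**Figure D2:**
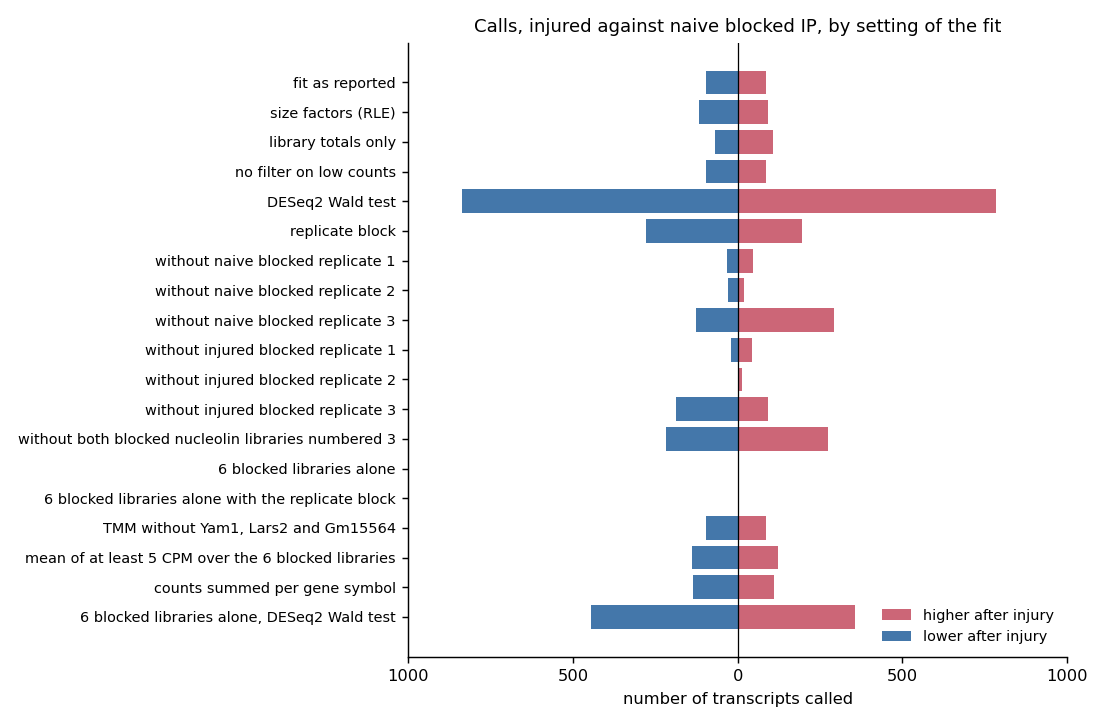
Number of transcripts called higher (right of 0) and lower (left of 0) after injury in blocked IP under each setting of the fit. The fit as reported called 87 and 97. The bars are shortest for the 6 blocked libraries alone with edgeR (0) and longest for DESeq2 on 12 libraries (784 and 837).

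Genes of dividing cells were higher in the injured background. Of 29 tested genes of a cell cycle list 6 rose and 0 fell, with a list median of 2.74 on the log2 scale and 20 genes whose injured libraries all lay above the naive ones. By sign, 23 were positive and 6 negative. For this list and those below, 0.735% of all transcripts were called higher and 0.819% lower. Groups lay fully apart for 12.6% upward and 11.6% downward. Mki67 (chromosome 7, 135689784 to 135716361 on GRCm38, minus strand, 14 exons), which coats mitotic chromosomes and marks cycling cells, stood at 24.2, 9.66 and 9.48 CPM in naive libraries 1, 2 and 3 and at 462, 294 and 312 CPM in injured ones. Its groups were far apart, and naive blocked 1 was the highest naive library; its log2 fold change was 4.62 (SE 0.54, adjusted p = 0.00565, edgeR), the smallest adjusted p of the comparison. Top2a (chromosome 11, 98992943 to 99024189, minus strand, 36 exons), the topoisomerase that untangles replicated DNA and a reported nucleolin target, stood at 2.73, 0.395 and 12.6 CPM in naive and at 268, 379 and 254 CPM in injured libraries. It rose by 5.84 on the log2 scale (SE 1.02, adjusted p = 0.0228, edgeR). Its naive values spread widely, with naive blocked 3 highest, but none came near the injured ones. Cenpe, a kinetochore motor, had no count in naive blocked 1 and 2, 3.81 CPM in naive blocked 3, and 138, 346 and 147 CPM after injury.

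The other called members were Sgol2a (6.74), which protects centromeric cohesion, and the mitotic kinesins Kif20b (3.94) and Kif23 (4.01). Genes of DNA replication licensing were not called: Mcm5 was at 1.19 (adjusted p = 0.599) and Mcm2, named for the contrast after its values were seen, was at 57.7, 43.1 and 26.4 CPM in naive against 30.1, 47.7 and 49.3 CPM in injured libraries. Ccna2, the S and G2 phase cyclin, was at 4.11 but missed the threshold (adjusted p = 0.0914), with 0.0581, 23.1 and 5.95 CPM in naive libraries. Without both libraries numbered 3, 7 genes of the list were called.

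The promoters of Top2a and Mki67 are shown because cell cycle genes often share a CCAAT box and a CHR element (searched as TTTGAA) near their start. These are the 2 of the 6 called cell cycle genes that held TTTGAA, so they do not stand for the others. Each is the 250 bases before the RefSeq start (GRCm38.p6), 5′ to 3′ on the gene's strand, Top2a from chr11:99024190-99024439 and Mki67 from chr7:135716380-135716629, both minus strand. Capitals mark CCAAT or TTTGAA on either strand (ATTGG and TTCAAA when reversed).
Top2a: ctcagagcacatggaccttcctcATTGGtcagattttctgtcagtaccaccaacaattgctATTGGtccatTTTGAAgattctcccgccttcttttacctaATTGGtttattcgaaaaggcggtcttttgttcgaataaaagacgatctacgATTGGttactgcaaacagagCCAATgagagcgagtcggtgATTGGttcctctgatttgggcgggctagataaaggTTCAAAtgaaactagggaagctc
Mki67: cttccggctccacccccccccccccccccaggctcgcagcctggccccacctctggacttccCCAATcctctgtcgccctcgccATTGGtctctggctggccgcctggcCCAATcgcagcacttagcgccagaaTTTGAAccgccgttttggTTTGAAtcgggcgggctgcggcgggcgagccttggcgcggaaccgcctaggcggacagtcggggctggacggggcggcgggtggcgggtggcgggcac
Top2a held 6 CCAAT and 2 TTTGAA matches and Mki67 3 and 2, with 0 bases in both motifs. Of the 6 called cell cycle genes, all matched to RefSeq (Sgol2a as Sgo2a, with a pair of start sites), 5 held CCAAT and 2 held TTTGAA, where 33.8% and 16.0% of 32851 promoters of this length hold them. A match describes the letters and not binding.

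Macrophage genes were the other main rise. Of 23 tested macrophage and phagocyte genes 5 rose and 0 fell, with a median of 2.59 on the log2 scale and 12 with groups fully apart. Mpeg1 (chromosome 19, 12460779 to 12465283, plus strand, 2 exons), the pore-forming perforin-2 of macrophages, stood at 51.7, 17.2 and 75.7 CPM in naive and at 2433, 907 and 2015 CPM in injured libraries (log2 fold change 5.21, SE 0.61, adjusted p = 0.00565, edgeR). Gpnmb (chromosome 6, 49036615 to 49058182, plus strand, 11 exons), a glycoprotein of lipid-laden phagocytes, stood at 154, 20.0 and 47.2 CPM in naive and at 3269, 1649 and 3178 CPM in injured libraries (5.20, SE 0.78, adjusted p = 0.0122, edgeR). In both genes injured blocked 2 was the lowest injured library and still more than 10 times the highest naive one. Cybb (2.85), the catalytic subunit of the phagocyte oxidase, Laptm5 (2.98), a lysosomal protein of blood cells, and the Src-family kinase Fgr (6.43) rose as well. So did another transcript of Cd84 (2.88), an adhesion receptor of leukocytes, although the more abundant one of that gene did not pass (2.59, adjusted p = 0.241).

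Not every macrophage gene followed. Lyz2, lysozyme, was at 1635, 1039 and 1693 CPM in naive and 2639, 1028 and 4895 CPM in injured libraries (adjusted p = 0.506). Mrc1, the mannose receptor of resident macrophages, was at 0.58 (adjusted p = 0.386) on the log2 scale. The complement gene C1qb was at 0.05 (adjusted p = 0.977), with a sign that turned in some settings; its libraries overlapped fully, at 1000, 324 and 722 against 480, 407 and 1234 CPM. The summed level of the list still ran from 3048 to 5718 CPM in naive and from 8070 to 19183 CPM in injured libraries.

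Lysosomal genes, which serve digestion of taken-up debris, gave 3 rises and 0 falls among 18 tested, with a median of 1.63. Ctsd (chromosome 7, 142375911 to 142388038, minus strand), the aspartic protease cathepsin D, stood at 31.6, 39.6 and 42.8 CPM in naive libraries, a narrow range, and at 814, 395 and 609 CPM in injured ones (3.99, SE 0.50, adjusted p = 0.0066, edgeR). The proton pump subunits Atp6v0d2 and Atp6v1b2 rose by 2.96 and 2.16. Atp6v0d2, the form of osteoclasts and macrophages, reached 83.5, 70.7 and 218 CPM, from 16.6, 22.7 and 8.38 CPM. Ctsb, a cysteine protease, was much more abundant and was at 2.07 (adjusted p = 0.0987) with groups apart, from 1674, 1843 and 3237 CPM to 10481, 5011 and 12961 CPM. Summed over the list, the level was 5333 to 8015 CPM in naive and 11619 to 24257 CPM in injured libraries. Without both libraries numbered 3, 5 macrophage and 2 lysosomal genes were called.

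Among 13 tested cytokines and chemokines 1 rose, Cxcl2, which attracts neutrophils, from 2.97, 1.02 and 0.462 CPM to 31.6, 122 and 55.8 CPM (5.55, SE 0.93, adjusted p = 0.0199, edgeR). Ccl3 and Ccl4, macrophage inflammatory proteins, were at 3.9 (adjusted p = 0.148) and 3.36 (adjusted p = 0.13). Neutrophil markers could not be compared, since 0 of 11 were listed for both conditions. The single lymphocyte gene tested, Cd4, was at 2.97 (adjusted p = 0.296), with overlapping libraries.

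Several of the 10 calls that held in every leave-one-out fit lie outside the lists and were chosen for naming because they held. Tnfaip2, an inducible protein of activated myeloid and endothelial cells, went from 2.27, 9.37 and 8.21 CPM to 472, 408 and 199 CPM. Plin2, which coats lipid droplets, went from 45.5, 102 and 62.6 CPM to 991, 645 and 708 CPM. Mmp14, a membrane-bound matrix metalloprotease, went from 49.8, 141 and 195 CPM to 1553, 1227 and 1048 CPM. In these 3 genes each injured library was more than 5 times the highest naive library. Fyb (4.35), an adaptor of T cells and myeloid cells, Fbn2 (4.30), the fibrillin of growing tissue, and Tuba1c (2.70), an alpha-tubulin, rose as well.

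**Figure D3:**
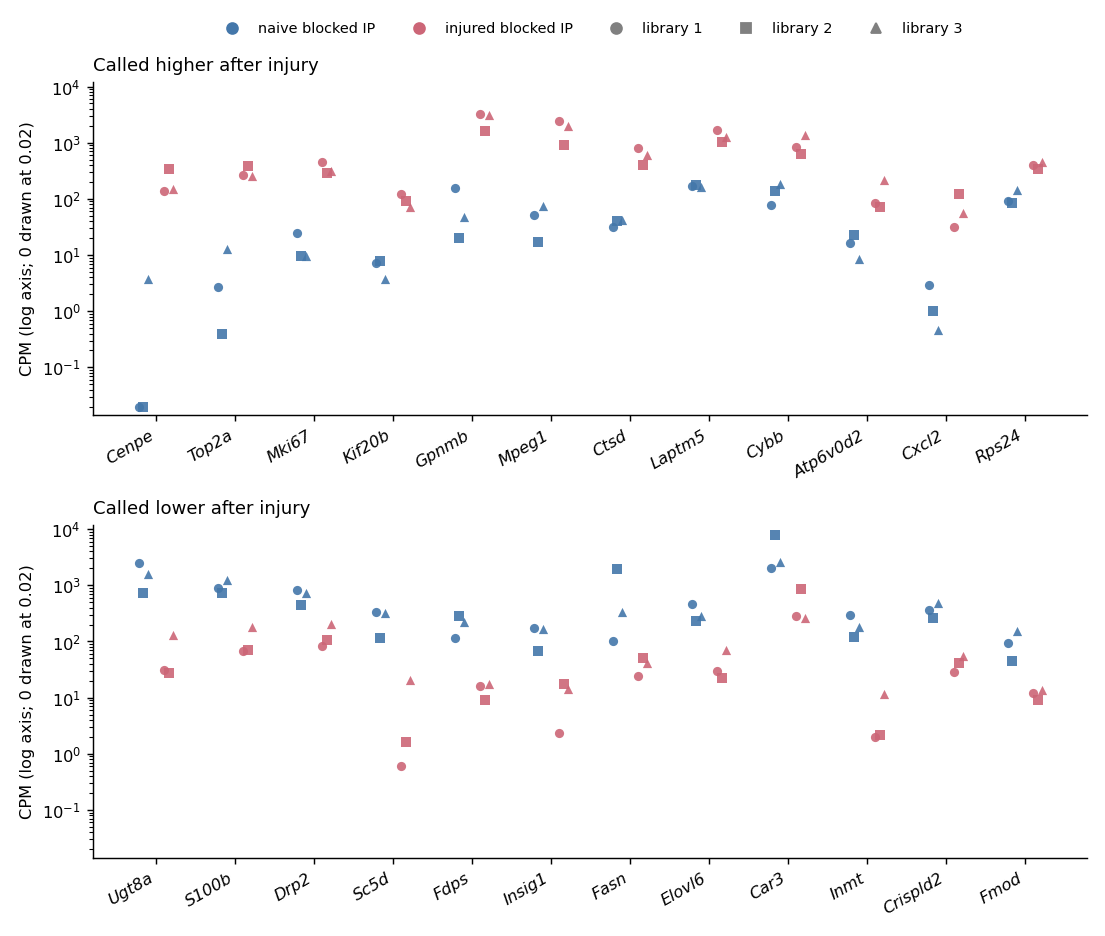
CPM (log axis, 0 drawn at 0.02) of 12 transcripts called higher and 12 called lower after injury, one point per library, blue for naive and red for injured blocked IP, with the marker giving the library number. In each gene the 3 red points lie on one side of the 3 blue ones. Cenpe shows 2 naive libraries at 0, and Fasn and Car3 show naive blocked 2 well above the other naive libraries.

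Myelin genes were lower in the injured background. Of the myelin list 16 genes were tested; 3 fell, 0 rose, all 16 had a negative log2 fold change (median -2.27), and 14 had every injured library below every naive one. Ugt8a (chromosome 3, 125865271 to 125938619, minus strand, 6 exons), which makes the myelin lipid galactosylceramide, stood at 2514, 731 and 1602 CPM in naive and at 31.5, 27.2 and 128 CPM in injured libraries (log2 fold change -4.70, SE 0.80, adjusted p = 0.0209, edgeR). Here injured blocked 3 was the highest injured library by about 4 times. S100b, a calcium-binding protein of Schwann cells, went from 878, 741 and 1223 CPM to 68.3, 70.5 and 182 CPM (-3.15), and Drp2, which links the myelin sheath to the basal lamina, from 826, 444 and 721 CPM to 81.3, 104 and 208 CPM (-2.34).

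Other myelin genes did not pass. Mal, a proteolipid of myelin, stood at 1531, 1029 and 2141 CPM in naive and at 57.1, 62.6 and 293 CPM in injured libraries (-3.51, SE 0.87, adjusted p = 0.0624, edgeR). Its groups did not overlap, yet within each group the highest library was more than 2 times the lowest. The same held for Pmp2 (-2.14, adjusted p = 0.146), a lipid-binding protein of myelin, while Mbp was at -0.42 with overlapping libraries (adjusted p = 0.69). With the libraries numbered 3 left out, 6 genes of the list were called, all lower.

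The list of the repair state, which Schwann cells take on after losing their axon, gave 0 calls among 7 tested. Another 5 of its 15 genes (Gdnf, Shh, Btc, Runx2 and Nrg1) were listed for injured nerve alone and 0 for naive nerve alone. Those 5 could not be tested, so the 0 calls do not cover them. Sox4, a transcription factor of immature cells, was nearest, at 0.640, 6.49 and 27.0 CPM in naive and 261, 162 and 140 CPM in injured libraries (4.04, SE 0.94, adjusted p = 0.0522, edgeR). Jun, the regulator of the repair state, was at 0.78 (adjusted p = 0.289) and the neurotrophin receptor Ngfr at -0.86 (adjusted p = 0.408).

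Genes of lipid synthesis were lower as well. Of 19 tested cholesterol synthesis genes 4 fell and 0 rose (median -2.08), and of 14 fatty acid synthesis genes 4 fell and 0 rose (median -1.85). Fdps, which makes farnesyl diphosphate, stood at 115, 280 and 222 CPM in naive and at 16.2, 9.24 and 17.5 CPM in injured libraries (-3.85, SE 0.73, adjusted p = 0.0276, edgeR). Sc5d, a late enzyme of the pathway, went from 339, 117 and 318 CPM to 0.611, 1.62 and 20.4 CPM (-5.10, SE 1.16, adjusted p = 0.0474, edgeR), with injured blocked 3 more than 10 times the other injured libraries. Hsd17b7 (-2.94), another late enzyme, and Insig1 (-3.61), the sterol sensor that holds SREBP precursors in the endoplasmic reticulum, also fell. Hmgcs1, the first committed enzyme of the mevalonate route, and Srebf2, the master regulator, just missed the threshold (-2.56, adjusted p = 0.0552, and -2.08, adjusted p = 0.0517). Without both libraries numbered 3, 3 cholesterol and 5 fatty acid genes were called.

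Insig1 and Sc5d are shown as promoters because E-boxes (CACGTG), like the sterol response element (searched as TCACNCCAC), are known sites of the SREBP family. Both are the 250 bases before the RefSeq start (GRCm38.p6), 5′ to 3′, Insig1 from chr5:28071162-28071411, plus strand, and Sc5d from chr9:42264301-42264550, minus strand, with CACGTG in capitals.
Insig1: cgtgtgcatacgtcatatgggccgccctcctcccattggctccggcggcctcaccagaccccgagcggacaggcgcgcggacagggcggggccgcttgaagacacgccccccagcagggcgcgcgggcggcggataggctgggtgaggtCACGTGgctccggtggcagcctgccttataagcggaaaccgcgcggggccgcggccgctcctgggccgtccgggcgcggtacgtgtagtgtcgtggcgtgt
Sc5d: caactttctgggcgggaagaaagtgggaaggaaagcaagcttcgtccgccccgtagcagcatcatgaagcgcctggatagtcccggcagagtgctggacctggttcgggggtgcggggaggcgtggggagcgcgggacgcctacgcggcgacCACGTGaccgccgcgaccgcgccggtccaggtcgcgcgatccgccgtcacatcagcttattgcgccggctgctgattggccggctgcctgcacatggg
Of the 8 called lipid genes 6 had a RefSeq promoter. Among these 3 (Hsd17b7, Insig1 and Sc5d) held CACGTG and 0 held TCACNCCAC on either strand, where 6.02% and 1.05% of 32851 promoters do. CACGTG reads the same on both strands and was counted once.

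The 4 fatty acid genes were Elovl6 (-2.97) and Elovl7 (-3.36), which elongate fatty acids, the desaturase Fads1 (-2.58) and the fatty acid synthase Fasn. Fasn stood at 102, 1976 and 333 CPM in naive and at 23.9, 50.8 and 40.7 CPM in injured libraries (-4.38, SE 0.89, adjusted p = 0.0337, edgeR). Naive blocked 2 was far above the other naive libraries, and without it, or without any 1 of the injured libraries, Fasn was not called. Adipocyte markers were highest in that same library: the 7 tested adipocyte genes summed to 10983, 47674 and 12919 CPM in naive and to 5093, 10144 and 2178 CPM in injured libraries. Of the 7, 1 fell, Car3, a carbonic anhydrase of fat, from 2038, 7872 and 2615 CPM to 288, 849 and 259 CPM (-3.17, SE 0.67, adjusted p = 0.0376, edgeR). Cfd, adipsin, was at 24160 CPM in naive blocked 2 against 5276 and 6107 CPM in the other naive libraries. The part of fat in the fatty acid calls was not tested.

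Markers of muscle and blood gave no call. Of 5 skeletal muscle genes 0 were called (median -2.74), their sum running from 301 to 1137 CPM in naive and from 7.80 to 127 CPM in injured libraries. Of 4 red blood cell genes 0 were called (median -3.50) and all 4 had groups apart, with a sum of 355 to 614 against 33.4 to 104 CPM. Globin genes have near-identical copies, so single members are uncertain. Of 10 endothelial and pericyte genes (median 0.61, 6 positive and 4 negative) 1 fell, Cspg4, the NG2 proteoglycan of pericytes (-1.65, adjusted p = 0.0474, edgeR), while Cdh5, the cadherin of endothelium, was at 230, 226 and 305 CPM in naive and 263, 325 and 301 CPM in injured libraries. Another 5 genes of that list were listed for injured nerve alone and 0 for naive nerve alone.

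Some matrix genes were lower. Of 22 fibroblast and matrix genes 3 fell and 0 rose, with a median of -1.36. By sign, 16 were negative and 6 positive. In 9 genes every injured library lay below every naive one, and in 3 every injured library lay above. Crispld2, a secreted protein (chromosome 8, 119992438 to 120052793, plus strand), stood at 367, 263 and 491 CPM in naive and at 29.0, 40.8 and 54.1 CPM in injured libraries (-3.18, SE 0.43, adjusted p = 0.00798, edgeR), and lost its call in 1 of 6 leave-one-out fits, that without injured blocked 2. The collagen-binding proteoglycan Fmod (-3.05) and Spock2 (-3.21), another extracellular proteoglycan, fell as well. The fibrillar collagen gene Col1a1 was at 0.42 (adjusted p = 0.641) and Col3a1 at -1.26 (adjusted p = 0.307).

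Axonal markers gave no call. Of 12 neuron and axon genes 0 were called, with a median of -2.05. By sign, 11 were negative and 1 positive, and 2 had every injured library below every naive one. Nefl, the light neurofilament chain, stood at 928, 2.88 and 39.2 CPM in naive and at 170, 8.64 and 33.5 CPM in injured libraries (-2.19, SE 1.43, adjusted p = 0.405, edgeR). It was highest in library 1 of each condition, and without naive blocked 1 its log2 fold change was 1.74. Nefm followed the same course, with 332, 1.64 and 6.53 CPM in naive libraries. The extract is labelled axoplasm, and of 5 defining axonal markers 3 were tested (Nefl, Nefm and Nefh), against 4 of 5 for Schwann cells. Among the untested ones, the Schwann cell gene Prx was listed for naive nerve alone. The axonal marker Tubb3 was listed for injured nerve alone, at 54.2, 28.4 and 42.8 CPM (of library totals) in injured blocked 1, 2 and 3. Of all 19 neuron and axon genes, 2 (Tubb3 and Sprr1a) were listed for injured nerve alone and 0 for naive nerve alone. Of 13 mRNAs known from axons 0 were called (median -0.57). They include Kpnb1, the importin beta whose axonal mRNA responds to injury, at -0.57 (adjusted p = 0.373). Of 13 genes around nucleolin and its reported targets 1 rose, Top2a, and Ncl itself stood at 923, 403 and 486 CPM in naive and 1712, 857 and 625 CPM in injured libraries (0.82, adjusted p = 0.529).

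**Figure D4:**
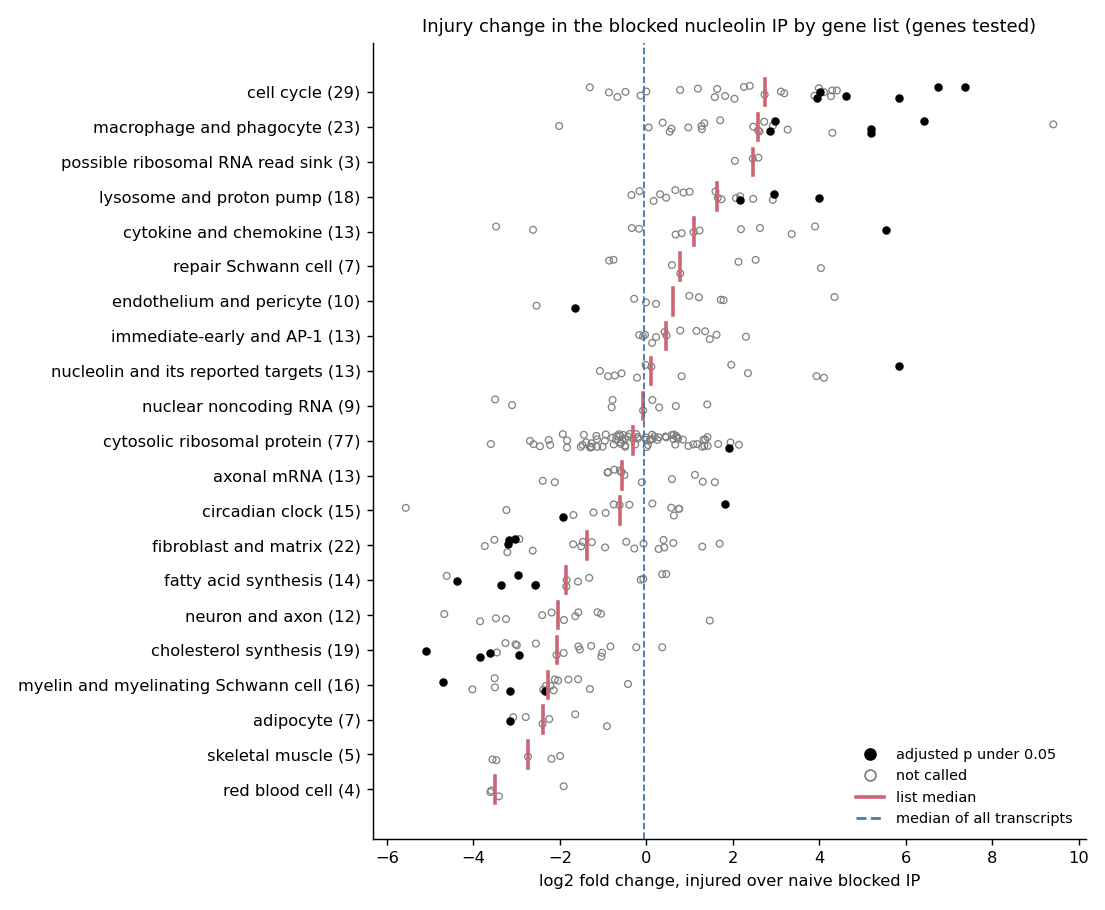
Log2 fold change (injured over naive blocked IP, x axis) of each tested gene by list, with filled points for genes called at an adjusted p under 0.05, open points for others, a bar for the list median and a dashed line for the median of all transcripts (-0.05). Points are spread vertically for sight only. Cell cycle and macrophage lists lie to the right (medians 2.74 and 2.59), and myelin and cholesterol lists to the left (-2.27 and -2.08).

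Other lists gave single calls. Among 15 circadian clock genes Bhlhe41, a repressor of clock genes, rose (1.82) and Nr1d1, the nuclear receptor REV-ERB alpha, fell (-1.92). The labels give no time of day of dissection. Of 77 cytosolic ribosomal protein genes 1 rose, Rps24 (1.90), and the list median was -0.31. Immediate-early genes and nuclear noncoding RNAs had 0 calls among 13 and 9, with Malat1 at 0.30 (adjusted p = 0.824). Yam1, Lars2 and Gm15564, handled here as possible sinks of ribosomal RNA reads, had all injured above all naive libraries without a call (2.59, 2.05 and 2.46), and leaving them out of the scaling changed 0 calls.

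Many of the steepest fitted changes rested on transcripts near 0 in one group. The 14 called transcripts with a log2 fold change of 6 or more had a median of 5.37 CPM, 5 of them were protein coding, and 11 had at most 3 counts in the naive group. The other 73 rises had a median of 145 CPM and 65 were protein coding. A processed transcript of Cln3 (chromosome 7, 126583322 to 126584786), the lysosomal gene of a childhood storage disease, had 0 naive counts and 26.6, 5.94 and 8.54 CPM after injury, at least 251-fold higher at a floor of 3 counts over the group. Floors and counting intervals here cover counting error only. The lincRNA Gm26790 had 0 naive counts too (at least 122-fold). In all, 6 such transcripts were at 0 in all naive blocked libraries. A retained-intron form of Iqce had 1 naive count; its injured level was 1245 times the naive one (95% counting interval 223 to 49201).

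A retained-intron form of P4ha2 (chromosome 11, 54100963 to 54127762, plus strand), a collagen prolyl hydroxylase gene, had 1 naive count and 13.1, 19.6 and 1.99 CPM after injury (a ratio of 609, interval 109 to 24074). In input the same transcript stood at 3.74 CPM in naive and 3.70 CPM in injured nerve. The difference between its blocked and input changes was 8.67 on the log2 scale (SE 1.49) and had the smallest adjusted p of that comparison, 0.152. Among falls, Rab9b, a small GTPase of late endosomes, went from 27.6, 67.1 and 8.79 CPM to 0, 0 and 0.662 CPM, Inmt, a methyltransferase, from 300, 122 and 184 CPM to 1.99, 2.16 and 11.6 CPM, and Slc6a13, a GABA transporter, from 58.7, 57.5 and 61.1 CPM to 0.916, 2.88 and 6.80 CPM. Slc6a13 was the most even of these across naive libraries.

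The blocked changes were set beside those of input, of unblocked nucleolin IP and of blocked IP with the PTBP1 antibody. Input, IP and blocked IP of the same number may come from the same pooled extract, so these groups are not independent. The calls in blocked and unblocked nucleolin IP also come from 1 fit with a shared estimate of spread, which can add to their overlap. Of the 184 calls, 142 of 179 with an input value were also called in input (79.3%, and 21.6% of the 658 input calls, where 6.04% of transcripts were called). In unblocked IP 69 of 184 were called (37.5%, and 70.4% of the 98 IP calls, 0.828% of transcripts), and in blocked PTBP1 IP 85 of 181 (47.0%, and 13% of 652, 6.06% of transcripts). Rises had a median log2 fold change of 2.87 in input, 2.39 in unblocked IP and 2.63 in blocked PTBP1 IP, and falls had -2.29, -2.32 and -2.40. Gpnmb for example was at 5.20 in blocked IP, 5.90 in input, 6.15 in IP and 7.15 in blocked PTBP1 IP.

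**Figure D5:**
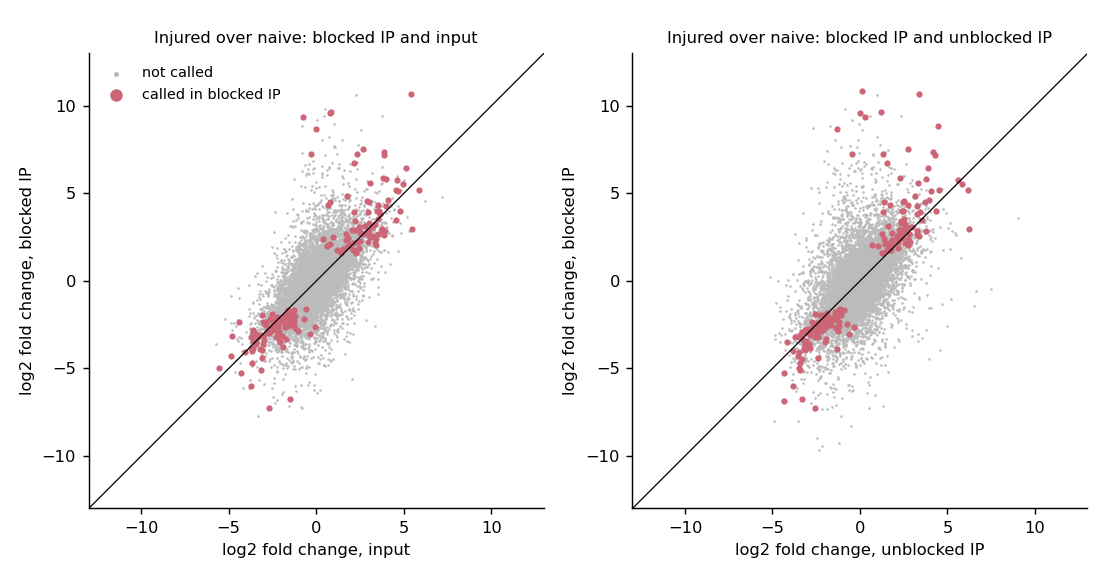
Log2 fold change after injury of each transcript in blocked nucleolin IP (y axis) against input (left, x axis) and unblocked nucleolin IP (right, x axis), with called transcripts in red and the line of equal change. Called rises have a median of 3.12 on the y axis, against 2.87 on the input and 2.39 on the IP axis, and called rises above 6 on the y axis reach values from -0.73 to 5.43 on the input axis.

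Whether injury acted differently on the background was tested directly. Against unblocked IP, 0 of 11840 transcripts differed by edgeR (smallest adjusted p = 1.00, 302 at an unadjusted p under 0.05), and 20 by DESeq2. Against input, 0 of 10891 differed (smallest adjusted p = 0.152, 507 at an unadjusted p under 0.05), and 6 by DESeq2. Against blocked PTBP1 IP, 0 of 10752 differed (smallest adjusted p = 0.155, 902 at an unadjusted p under 0.05), and 353 by DESeq2. The standard error of a difference had a median of 1.30, 1.07 and 1.62 on the log2 scale in the 3 comparisons, so a difference of about 1 SE, more than 2-fold, lay within the error of most transcripts. Atp6v0d2 shows the size that escaped: it rose by 2.96 in blocked and 6.21 in unblocked IP, a difference of -3.25 (SE 0.79) that did not pass.

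The input comparison turned on the libraries numbered 3. Without naive blocked 3, 144 transcripts differed from input, without injured blocked 3, 13, and without both, 259 (167 more and 92 less than in input). These fits keep 2 libraries in a blocked group and share 1 estimate of spread with the more even input and unblocked IP libraries. That estimate may be too small for the blocked libraries, and uneven recovery can enter the calls. Ncam2 was called with 46.8 and 0.158 CPM in injured blocked 1 and 2 (adjusted p = 0.0201, edgeR). Of the 167, 78 had no count in naive blocked 1 and 2, and of the 92, 39 had none in injured blocked 1 and 2. Retained-intron forms made up 22.5% of the 259 with an annotation. Their share was 10.8% of all transcripts in the fit of 12 libraries, a larger set than that also listed for input. Spon1, a secreted matrix protein named for its size of difference after its values were seen, was at 0.485 and 0.577 CPM in naive blocked 1 and 2 and at 156 and 20.4 CPM in injured blocked 1 and 2, while in input it changed by -1.82 on the log2 scale. Against unblocked IP, 5 transcripts differed without naive blocked 3 and 4 without both.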

How the data were processed

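Raw counts of each Ensembl transcript in each library were deposited by the authors. The submitters' processing notes name CASAVA 1.8.2, edgeR, mm10 and GRCm38; the sources used here give no aligner, counting tool or strand setting. In the nucleolin tables each row reaches 5 counts or more in every library of some group, so a transcript missing from all libraries of a condition is not compared. The 14181 naive and 15841 injured rows were joined on transcript identifiers (11862 shared, holding 98.1% to 99.3% of each blocked library's counts). Naive blocked library 3 has PCP where the others have ctrl in its column name, and was matched by condition, antibody and number. Another 84 columns of per-sample values in these tables were not used.

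Raw counts were scaled together and tested with edgeR 4.0.16 in R 4.3.3 (quasi-likelihood test, TMM, filterByExpr, Benjamini-Hochberg, two-sided, adjusted p of 0.05), in fits of 12 nucleolin libraries, 18 with input and 24 with PTBP1. Alternatives included DESeq2 1.42.0, other scalings and filters, and leaving out libraries. The script was tested on simulated data. CPM use TMM-scaled library sizes. Each standard error was worked back from the test, as the absolute log2 fold change divided by the square root of its quasi-likelihood F statistic. No 2 replicates looked like 1 library: chi-square over its degrees of freedom was 231.5 or more for every pair. Annotation was GENCODE on GRCm38, which held 11616 shared transcripts, and 7 symbols that a spreadsheet had turned into dates were replaced.

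Members, 23 gene lists and tests were chosen with earlier results of these data known, so the lists give no independent support. The rule for naming took, among calls whose groups did not overlap, at most 15 rises and 15 falls by size of change, then every called list gene, and at most 4 more per list by level. Only some of the 15 rises and 15 falls are described above, and the largest rise, Gm10548 (10.86), is not. That further choice followed no fixed rule. Mbp, Mcm2, Nefm, Nefh, Spon1 and the calls held in every leave-one-out fit were named after their values were seen. A gene was represented by its most abundant tested transcript.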

Additional observations from a re-analysis of the deposited data

How the results depend on the processing

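For injured against naive blocked IP, the 184 calls became 207 with DESeq2's size factors in edgeR, 184 without a filter on low counts or without Yam1, Lars2 and Gm15564, 262 at a mean of at least 5 CPM and 245 with counts summed per gene (177 of the called genes among them). Scaling to library totals gave 176 calls, 61.4% of them higher in place of 47.3%, and moved the median of all transcripts to 0.0876. DESeq2 called 1621, and 493 were called without both libraries numbered 3. With the 6 blocked libraries alone edgeR called 0, also with the replicate block, and DESeq2 called 804 (a setting chosen after seeing the data). Leaving out 1 library gave 13 to 419 calls. The cause of these shifts was not tested. For the injury effect against unblocked IP, DESeq2 called 20, the fit without both libraries numbered 3 called 4, and leaving out 1 library gave 0 to 5. Against input these were 6, 259 and 0 to 144, and library totals moved the median difference to 0.40. Against blocked PTBP1 IP DESeq2 called 353, and every other setting called 0.

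Same-number deviations of the blocked libraries correlated at 0.0887, 0.0623 and 0.204 for numbers 1, 2 and 3, each the best match of its injured library, but not all above 0.1, so the number was not taken as a pairing. With the replicate block 475 transcripts were called, 196 higher and 279 lower, 180 of the 184 among them; the 3 tests of a difference in injury effect kept 0 calls with it. The sign turned for genes with changes near 0: with library totals Acta2 was at 0.0996, Elovl5 at 0.0686 and Klf6 at 0.125, with the block Acta2 at 0.262 and C1qb at -0.108, without both libraries numbered 3 Elovl5 at 0.0536, Klf6 at 0.0752 and C1qb at -0.577, with the 6 libraries alone and the replicate block Acta2 at 0.204, and at a mean of at least 5 CPM Acta2 at 0.0527 and Klf6 at 0.0239. Leaving out 1 library gave -1.32 to 0.137 for Anln, -3.86 to 1.74 for Nefl, -1.85 to 0.128 for Fabp4, -0.00962 to 0.691 for Malat1, -0.288 to 0.518 for Tef, -0.653 to 0.403 for Acta2, -0.637 to 0.478 for C1qb, -0.130 to 0.0819 for Elovl5 and -0.195 to 0.191 for Klf6. What depth and spread each contribute to missing calls was not tested.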

Other observations

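Some genes of the lists were listed by the authors for 1 condition alone, so no test was possible, and a missing row does not mean a count of 0. Arg1, the arginase of wound macrophages, was listed for injured nerve alone, at 380, 388 and 857 CPM (of library totals) in injured blocked 1, 2 and 3. Of 11 neutrophil genes 6 were listed for injured nerve alone and 0 for naive nerve alone; Retnlg was at 23.7, 55.3 and 48.1 CPM, the collagenase Mmp8 at 15.2, 27.4 and 39.5 CPM and S100a8 at 22.5, 19.4 and 55.8 CPM. Of 52 cell cycle genes 14 were listed for injured nerve alone, among them Rrm2, a subunit of ribonucleotide reductase, at 121, 44.9 and 84.3 CPM and the checkpoint kinase Bub1 at 23.9, 85.6 and 31.1 CPM. In turn, 1 cell cycle gene, Pcna, was listed for naive nerve alone, at 15.7, 16.1 and 8.54 CPM. Of 22 cytokines 7 were listed for injured nerve alone, with Cxcl5 at 114, 40.8 and 107 CPM and Il1b at 21.4, 57.1 and 36.3 CPM. Recovery within a group was uneven here too: Il6 was at 0, 16.5 and 2.92 CPM, the Schwann cell growth factor Gdnf at 23.8, 1.46 and 3.98 CPM and Shh, a hedgehog ligand, at 9.55, 0 and 7.69 CPM.

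For naive nerve alone, the tables listed 3 skeletal muscle genes, such as Mylpf, a muscle myosin light chain, at 26.2, 42.3 and 128 CPM in naive blocked 1, 2 and 3, and 3 cholesterol synthesis genes, such as the isomerase Ebp at 24.2, 6.93 and 1.27 CPM. The chemokine Cxcl1 was listed there at 79.2, 0.749 and 7.32 CPM, so naive blocked 1 held nearly all of it. Among transcripts whose blocked change differed from input once both libraries numbered 3 were left out, Rgs18, a regulator of G protein signalling in platelets and myeloid cells, went the other way: it was at 50.8 and 41.8 CPM in naive blocked 1 and 2 and at 8.89 and 1.58 CPM in injured blocked 1 and 2, a change of -3.14, and at 22.2 to 27.3 CPM in naive and 87.6 to 92.4 CPM in injured input, a change of 1.90 on the log2 scale (difference -5.04, SE 0.86, adjusted p = 0.00891, edgeR). That test set 2 blocked libraries against 2 and carries the limit of the shared estimate of spread. These transcripts were chosen after their values were seen.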
